A study of Dunaliella salina with 9 samples.

Results

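Of 115975 transcript clusters counted in the green alga Dunaliella salina, 125 were on only in white light. They were chosen from the measured values: at least 2 CPM (counts per 1000000 counts of the library) in each of the 3 white libraries, and at most 0.1 CPM in each of the 3 red and 3 blue libraries. The difference between white and the other lights is therefore how these clusters were defined, and it is given below as a description. A cluster is a group of assembled transcript sequences that the authors counted together. It may represent a whole gene, only an isoform or an allele of it, and its identifier carries no gene name or function in the deposited tables.

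RNA was sequenced from 9 samples of cultured algal cells, taken in mid-exponential growth and put into fresh medium for the irradiation. The lights were cool white, red of 660 nm and blue of 450 nm, with 3 samples each and a photon flux of 50 µmol m−2 s−1 throughout. All cultures had first been grown at 22 °C under cold white fluorescent lamps, with 14 hours of light and 10 hours of dark per cycle. Strain, culture date, time under each light and whether each sample had a culture of its own are not given in the sources used here. The light and any such difference between the groups therefore cannot be told apart.

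Dunaliella salina is a unicellular, wall-less, salt-tolerant alga of the same order as Chlamydomonas, and is grown for its β-carotene. Light reaches the genes of green algae both as energy, through chlorophylls that absorb mainly red and blue, and as a signal, through photoreceptors such as the blue-absorbing cryptochromes and phototropin. White fluorescent light also holds green and yellow wavelengths that a narrow red or blue band lacks. The title of the series names carotenoid synthesis under red and blue light as its subject. Enzymes of that pathway cannot be looked up among the 125 clusters, because none of the cluster identifiers was found in the reference table of 16683 D. salina genes.

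Total counts ran from 16279167 to 19888088 in the white libraries, from 17674678 to 24526786 in red and from 17905778 to 19921151 in blue. The white libraries differed more from each other than the red or the blue ones did. Over the clusters with at least 2 CPM in every white library, the correlation of log2(CPM + 1) was 0.82 between white 1 and white 2, 0.94 for both of these with white 3, and 0.97 to 0.98 within red and within blue. The upper threshold of 0.1 CPM lies near the limit of detection. A single count was worth 0.0408 to 0.0566 CPM in the red and blue libraries, and a count of 0 in any 1 of them allows a level of up to 0.122 CPM (red 1) to 0.170 CPM (red 2), from counting error alone.

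White-only clusters were mostly of low to middle abundance. The median cluster had 8.38 CPM in white 1, 8.43 CPM in white 2 and 7.77 CPM in white 3. The mean over the white libraries was under 5 CPM for 32 clusters, from 5 to 10 CPM for 33, from 10 to 50 CPM for 46, from 50 to 100 CPM for 10, and 100 CPM or more for 4. A single one of them, in white 1, was among the 100 most abundant clusters of a white library.

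In red and blue light 88 of the 125 clusters had no counts in any library. The other 37 had counts in up to 5 of the 6 libraries. All 125 together held 77.3 estimated counts in the red and blue libraries, against 194824 in the white ones. Per library, 8 to 16 of them had any count in red or blue, and the highest sum for 1 cluster was 6 counts over the 6 libraries. Counts were left in red for 30 clusters, in blue for 24 and in both for 17.

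**Figure D1:**
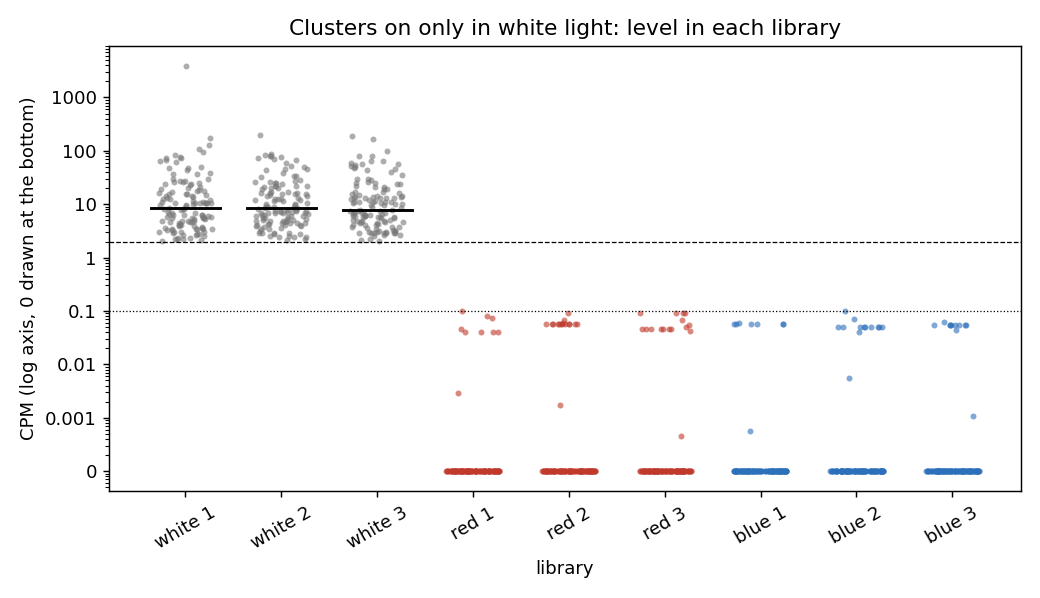
Level of the 125 clusters on only in white light in each of the 9 libraries, in CPM on a log axis with 0 drawn at the bottom; 1 point is 1 cluster, black bars are medians of the white libraries, and the dashed and dotted lines mark the thresholds of 2 and 0.1 CPM. All white points lie at or above 2 CPM, with 1 point at 3849 CPM in white 1, and most red and blue points lie at 0; points far below 0.1 CPM are fractions of a count.

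The size of the drop can only be bounded where a light had no counts. Against a floor of 3 counts over the 3 libraries of that light, the pooled white counts put the 95 clusters with no red counts at least 54.6-fold to at least 28544-fold higher in white, with a median bound of 172-fold. For the clusters with no blue counts (all but 24) the bounds ran from 48.1-fold to 25156-fold, with a median of 174-fold. The highest bound in each case belongs to the cluster with the highest mean white CPM and rests on white 1. Without that library, the bound of this same cluster was 1459-fold for red and 1286-fold for blue. The next highest bounds, 4039-fold for red and 3560-fold for blue, belong to the cluster of rank 2 in abundance. For the 30 clusters with red counts the ratio of white to red was 102 or more, with a median of 628, and for the 24 with blue counts the ratio of white to blue was 159 or more, with a median of 459. These ratios rest on very few counts, in places on a fraction of a count.

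In edgeR's quasi-likelihood test over all 38376 clusters with enough counts, all 125 were called lower in red and all 125 lower in blue (Benjamini-Hochberg adjusted p under 0.05). Of all tested clusters, 16.9% were called lower in red and 14.7% lower in blue. The members were chosen on these same libraries and the comparisons share the white libraries, so the counts of members support nothing beyond the rule.

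By its mean over the white libraries, the most abundant white-only cluster was Cluster-15686.51590, with an effective length of 2558 bases. It had 3849 CPM in white 1, 70.6 CPM in white 2 and 65.8 CPM in white 3, and was not counted at all in red or blue. Its mean of 1329 ± 2183 CPM (SD, n = 3) thus rests on white 1, where it was the cluster of rank 15, against ranks 1811 and 1982 in white 2 and white 3. Other white-only clusters stood above it in white 2 and white 3, where the leading ones had ranks 626 and 664. Without white 1 the mean of Cluster-15686.51590 was 68.2 CPM. It was still on in both remaining white libraries.

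The next in abundance was level across the white libraries. This cluster of 1806 bases had 175, 200 and 193 CPM in white 1, 2 and 3 (mean 189 ± 13.1 CPM, SD, n = 3) and no counts in red or blue. It was at least 4039-fold higher in white than in red and at least 3560-fold higher than in blue. The cluster of rank 3, of 2755 bases, had 65.9, 82.0 and 167 CPM in white 1, 2 and 3 and no counts elsewhere, so that here white 3 stood above white 1 and white 2.

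The clusters of rank 5 and 6 in abundance left a trace in both narrow bands. The cluster of rank 5 had 84.5, 87.7 and 79.3 CPM in white 1, 2 and 3, and 3 counts in red and 2 in blue. Its white to red ratio was 1792, with a 95% exact (Clopper-Pearson) interval of 613 to 8694, and its white to blue ratio was 2369 (656 to 19571); these intervals cover counting error only. The cluster of rank 6 had 73.3, 79.3 and 65.2 CPM in white, 1 count in red and 2 in blue. Both were steady across the white libraries.

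Levels of different clusters were compared per length, as FPKM (scaled to 1 kilobase of effective length and 1000000 counts). By the lowest white value, Cluster-15686.8172 came out on top, with 5645, 2089 and 2412 FPKM in white 1, 2 and 3. Its effective length of only 2.26 bases makes that figure unreliable. In counts it was a modest cluster, with 12.8, 5.69 and 4.55 CPM in white and no counts in red or blue. Of the 125 clusters, 20 had an effective length under 300 bases, and FPKM values of such short clusters carry the error of that length.

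Among the 105 longer clusters, the leading one per length was the level cluster of 1806 bases described above, with 96.8, 110 and 107 FPKM in white 1, 2 and 3. A cluster of 324 bases followed with 84.2, 129 and 110 FPKM, and it had 1 count in red and 2 in blue. A cluster of 765 bases had 62.5, 86.4 and 73.5 FPKM, with 1 count in each narrow band. These ranges overlap between the clusters of rank 1 and 2, so their order is not larger than the spread between libraries. A cluster of 968 bases, with no red or blue counts, had 45.2, 60.7 and 57.9 FPKM, and 1 of 1224 bases, also without such counts, had 50.0, 41.0 and 36.4 FPKM. The median of the 105 was 6.24 FPKM in white 1, 6.43 in white 2 and 6.28 in white 3.

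As a sum, the white-only clusters held 0.615% of the counts in white 1, 0.227% in white 2 and 0.228% in white 3 (mean 0.357% ± 0.224, SD, n = 3). The excess of white 1 was the most abundant cluster, which alone held 0.385% of that library. The other 124 held 0.230%, 0.220% and 0.222% (mean 0.224% ± 0.00555, SD, n = 3), with the highest library at 1.05 times the lowest. Without white 1, the mean share of all 125 was 0.227%.

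**Figure D2:**
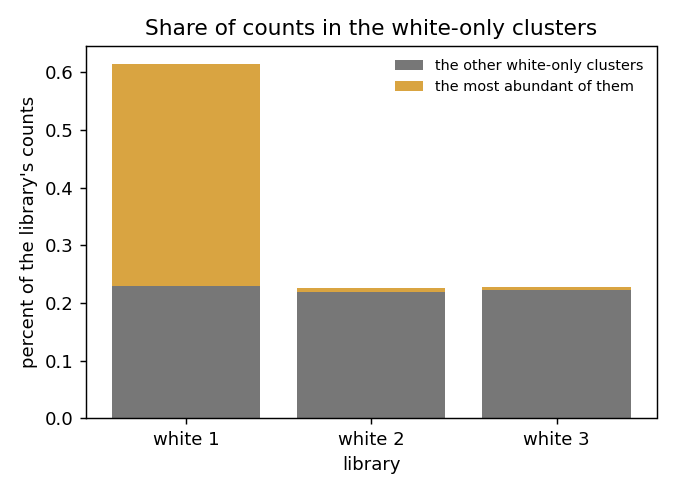
Percent of each white library's counts held by the 125 clusters on only in white light, split into the most abundant cluster (upper part of the bar) and the other 124 (lower part). The lower parts are nearly equal at 0.230%, 0.220% and 0.222%, and the upper part is large in white 1 alone, at 0.385%.

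Single clusters varied between the white libraries to very different degrees. The highest white library was under 1.5 times the lowest for 41 clusters and at least 2 times for 53, at least 5 times for 12 and at least 10 times for 3. White 1 was highest for 54 clusters and lowest for 58, white 2 highest for 57 and lowest for 38, and white 3 highest for 14 and lowest for 29. The median ratio of highest to lowest was 1.82 (quartiles 1.40 and 2.66), against 1.54 (1.25 and 2.21) for the other 13667 clusters at 2 CPM or more in every white library. These sets were not matched for level (median 9.38 against 17.1 CPM) or length, and the difference in ratio was not tested.

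White 1 and white 2 differed in both directions, in part at the rate of other clusters. At least a 2-fold excess in white 1 over white 2 was seen in 25 white-only clusters (20%), a share like the 19.98% of the other 13667 clusters on in white. The medians of the 25 were 16.2, 5.69 and 10.1 CPM in white 1, 2 and 3. The reverse was seen in 21 clusters (16.8%), against 8.88% of the others, with medians of 3.55, 20.1 and 10.3 CPM; the difference in share was not tested. White 3 lay between white 1 and white 2 for 82 of the 125 (65.6%), and for 75.5% of the other clusters on in white. The 41 steady clusters had medians of 6.90, 8.43 and 7.31 CPM. The median effective length was 2933 bases in the clusters higher in white 1, 1219 bases in those higher in white 2 and 1308 bases in the steady ones. These sets were drawn from the measured values after those were seen and carry no test.

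Examples show how wide the shapes were. A cluster of 3439 bases had 74.5 CPM in white 1, 3.61 in white 2 and 49.4 in white 3. A cluster of 900 bases had 8.13, 72.3 and 48.2 CPM in the same libraries, and a cluster of 821 bases had 10.4, 75.4 and 45.0 CPM. White 3 sided with white 1 in the former and with white 2 in the latter pair. At the other end, a cluster of 3334 bases had 6.81, 6.87 and 6.93 CPM. None of these 4 had a count in red or blue.

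**Figure D3:**
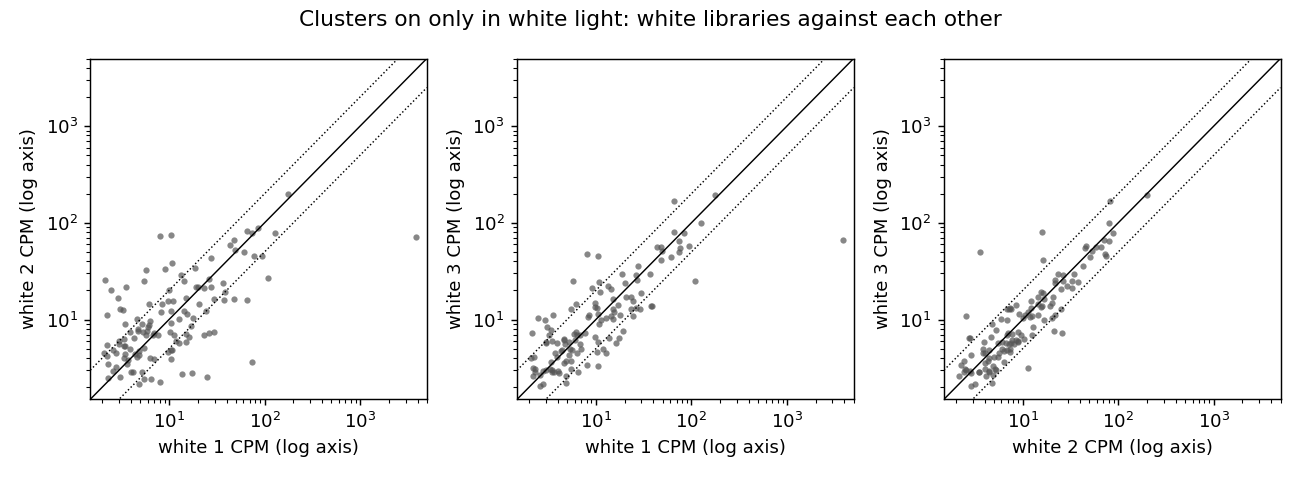
CPM of the 125 clusters on only in white light in pairs of white libraries, on log axes; 1 point is 1 cluster, the solid line marks equal values and the dotted lines 2-fold differences. Points spread most between white 1 and white 2, where 25 clusters (20%) lie at least 2-fold to the white 1 side and 21 (16.8%) at least 2-fold to the white 2 side, against 19.98% and 8.88% of the other clusters on in white.

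Across the 125 clusters, the log2 CPM of white 1 and white 2 had a Pearson r of 0.62, that of white 1 and white 3 an r of 0.81 and that of white 2 and white 3 an r of 0.88. For the other 13667 clusters on in white the values were 0.81, 0.94 and 0.93. These are descriptions across clusters that share libraries and depth, and white-only clusters had fewer counts, with a median mean level of 9.38 CPM against 17.1 CPM.

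How far the pattern held in a library that had no part in choosing the clusters was examined by leaving out each library in turn. Chosen on the other 8 libraries, 212 clusters were obtained without white 1, and 125 of them (59.0%) had at least 2 CPM in white 1. Another 40 had no counts in white 1 at all (18.9%). Without white 2 the choice gave 158 clusters, of which 79.1% were on in white 2 and 8.23% had no counts there. Without white 3 it gave 138, of which 90.6% were on in white 3 and 2.17% had no counts. The share was thus lowest for white 1. The same 125 clusters recur in each choice, so each share reflects how many further clusters the other 8 libraries let in. A lack in the left-out library and a surplus in the other white libraries cannot be told apart.

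Other clusters held their state in the left-out white library more often. Of the clusters on in the remaining white libraries and not off in red and blue, 90.5% were on in white 1, 85.4% in white 2 and 97.6% in white 3, and 2.08%, 2.19% and 0.443% had no counts there. The sets were not matched for level, and the difference was not tested.

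The silence in red and blue was met more evenly by a left-out library. The number of clusters chosen without 1 red library was 128 (red 1), 149 (red 2) and 132 (red 3), and 97.7%, 83.9% and 94.7% of them were at or below 0.1 CPM in the library left out. Without 1 blue library it was 139, 138 and 143, and 89.9%, 90.6% and 87.4% were at or below 0.1 CPM. At most 4 clusters in any of these 6 choices reached 2 CPM in the library left out. The highest such value was 23.5 CPM, in red 2. The limit of 0.1 CPM allows 2 whole counts in red 1 and red 3, but only 1 in red 2 and in each blue library. Of the clusters chosen without red 2, 23 lay between 0.1 and 2 CPM there. These shares therefore also depend on depth, and a difference between libraries beyond that was not tested.

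Patterns within the white libraries also differed from those within red and blue. Requiring at most 0.1 CPM in all 6 libraries of the other lights, 125 clusters were on in all 3 white libraries, 42 in white 2 and white 3 with white 1 off, 13 in white 1 and white 3 with white 2 off, and 4 in white 1 and white 2 with white 3 off. A further 109 clusters were on in white 2 alone, against 12 in white 1 alone and 9 in white 3 alone. These 109 were mostly rare, with a median of 3.15 CPM in white 2 and a highest value of 48.5 CPM. The same thresholds turned to the other lights gave 7 clusters on in red only and 2 in blue only. For a single red or blue library the numbers were 15 to 17.

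**Figure D4:**
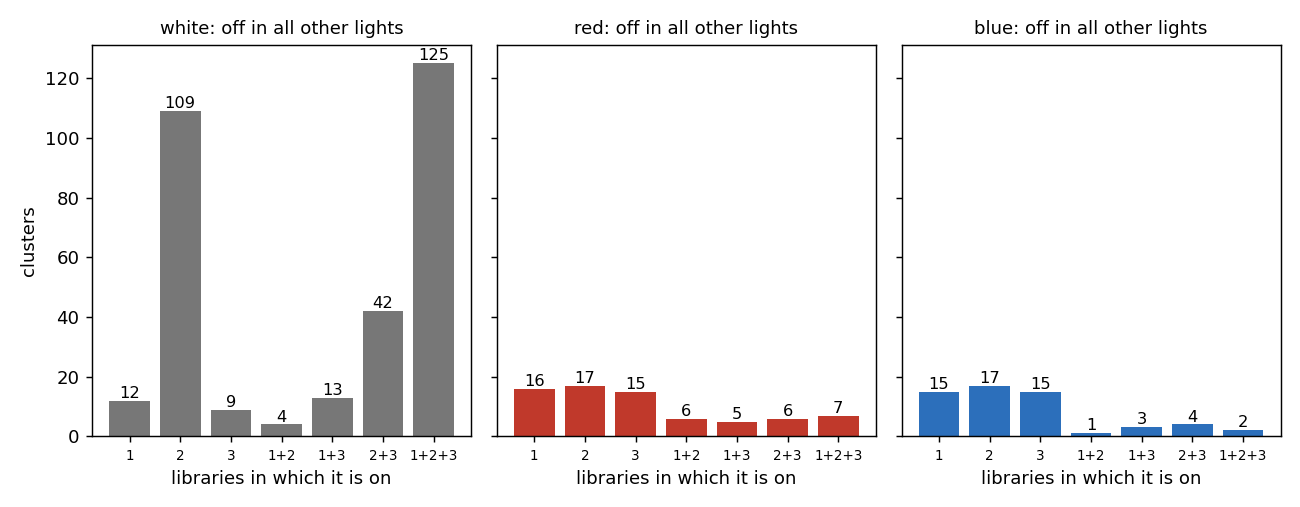
Number of clusters that were on (at least 2 CPM) in the named libraries of a light, off (at most 0.1 CPM) in its remaining libraries and off in all 6 libraries of the other lights, for white, red and blue. The tallest bars are the 125 clusters on in all white libraries and the 109 on in white 2 alone, while no bar in red or blue exceeds 17.

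The 125 clusters were 0.906% of the 13792 clusters with at least 2 CPM in every white library. Most of these 13792 remained well expressed under the narrow bands: 71.0% exceeded 10 CPM in at least 1 red or blue library. At the low end, the highest red or blue level was over 1 to 2 CPM for 299 clusters, over 0.5 to 1 CPM for 121, over 0.2 to 0.5 CPM for 92, over 0.1 to 0.2 CPM for 43, over 0 to 0.1 CPM for 37 and 0 for 88. These ranges narrow towards 0, so smaller numbers in the lower ones are built in and show no decline.

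The reverse set was larger. With the thresholds turned round, 524 clusters were at most 0.1 CPM in every white library and at least 2 CPM in all 6 red and blue libraries, or 3.13% of the 16751 clusters on in all of these 6. Of them, 457 had no counts in white. White-only and reverse clusters had similar levels where they were on, with a median of 9.38 CPM for the former in white, and of 9.30 CPM in red and 9.83 CPM in blue for the latter. The reverse set held 0.984% ± 0.0316 of the counts in red and 1.03% ± 0.0235 in blue (SD, n = 3). Its median ratio of highest to lowest library was 1.32 in red and 1.33 in blue. For the other 16227 clusters on in red and blue this ratio was 1.19 in red. White has 3 libraries and fewer pooled counts than red and blue together, so the thresholds do not reach equally far in both directions.

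**Figure D5:**
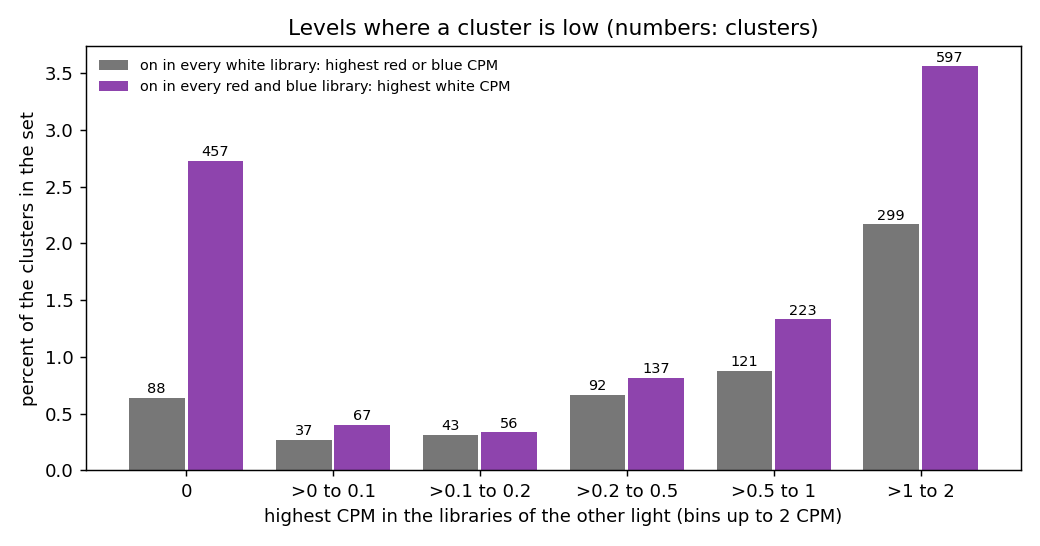
Percent of clusters by their highest level in the libraries of the other light, in CPM, for the 13792 clusters on in every white library (grey) and the 16751 on in every red and blue library (purple); only levels up to 2 CPM are drawn, and the numbers are clusters. The bars at 0 hold 88 and 457 clusters; the ranges narrow towards 0, so the heights of the other bars do not compare like with like.

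Loss in a single narrow band was less complete. On in every white library and off in every red one were 193 clusters, of which 125 were off in blue too. The other 68 exceeded 0.1 CPM in at least 1 blue library, 7 of them in all 3, and 27 reached 1 CPM in some blue library. Off in every blue library were 181, of which 56 exceeded 0.1 CPM in at least 1 red library, again 7 in all 3, and 14 reached 1 CPM. Some rose far above the floor. The top level of any of the 68 in a single blue library reached 85.2 CPM, and their top mean over blue reached 37.1 CPM. For the 56, the top level in a single red library reached 23.5 CPM and the top mean over red 7.87 CPM. Yet each of these 68 or 56 fell below 2 CPM in at least 1 library of the other band. By these thresholds, therefore, no cluster was off in 1 narrow band and on in every library of white and of the other band.

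In length the white-only clusters spread widely. Their median effective length was 1264 bases (quartiles 567 and 2408), against 1548 bases (895 and 2491) for the other clusters on in white and 1863 bases (1174 and 3345) for the reverse set. Short clusters under 300 bases were 16% of the white-only set, 6.55% of the other clusters on in white and 3.82% of the reverse set. The longest white-only cluster, of 13036 bases, had 93.7, 45.8 and 57.9 CPM in white 1, 2 and 3 and no counts in red or blue. Clusters with 4000 bases or more were 13 of the 125.

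Counts that are not whole, which can arise where a read is divided between similar clusters, were common among white-only clusters. At least 1 white library had such a count for 77.6% of them, 65.4% of the other clusters on in white and 88.4% of the reverse set in red. Counts were whole in all 9 libraries for 26 of the 125. For the others a level can depend on how any such division was made. The identifier prefix shared by 96131 of all clusters was carried by 99.2% of the 125, 99.99% of the other clusters on in white and all of the reverse set.

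The thresholds cut through a continuous range on the white side. The 3 clusters just inside had a lowest white level of 2.07, 2.08 and 2.15 CPM, and the 3 just outside 1.98, 1.98 and 1.96 CPM, all with no counts in red or blue. With a lowest white level from 1 to 2 CPM and the same silence in red and blue there were 69 further clusters. On the side of red and blue, the nearest inside had a highest level of 0.0989, 0.0987 and 0.0928 CPM and the nearest outside 0.1004, 0.1004 and 0.103 CPM, a difference of less than 1 count.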

How the data were processed

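Each of the 9 libraries has 1 table with an estimated count and an FPKM value for 115975 clusters. The estimated counts deposited by the authors are not scaled, and per library 21.6% to 33.9% of them are fractional. Judged from the values, the authors' deposited FPKM are scaled to 1 kilobase of effective length and 1000000 counts. Effective length was derived from both, as the median over libraries with at least 50 counts. The aligner, counting tool and assembly are not given in the sources used here; DESeq 1.10.1 is named in the submitters' processing notes. Per the labels' protocols, 1.5 µg of Trizol-extracted RNA went into each NEBNext Ultra library.

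CPM is the count divided by the library's total, without further scaling, so a shift in a few abundant clusters changes it. For the test, counts were rounded, filtered (edgeR filterByExpr, minimum 10 counts, 15 in total, 38376 clusters), TMM-scaled and entered into edgeR 4.0.16 (glmQLFit, robust; R 4.3.3) with light as the only term, over all 9 libraries. The code was tested on simulated data. No libraries of a light were alike within sampling noise: chi-square per degree of freedom was 7.02 or more.

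The members and lists were chosen with earlier results of these data known. As identifiers carry no names, 2 are printed: the member with the highest mean white CPM and the one with the highest lowest white FPKM. Others are described by rank or as examples chosen after their values were seen. Where samples are not from separate cultures, errors measure technical spread. Intervals and floors cover counting error only. Alternatives were other thresholds, scalings, tests and filters, a replicate block and each library left out.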

Additional observations from a re-analysis of the deposited data

How the results depend on the processing

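The number of white-only clusters, 125, depends on the thresholds. It was 194, 65 and 38 with a white minimum of 1, 5 and 10 CPM, 381 with a red and blue maximum of 1 CPM, 236 with FPKM in place of CPM (84 of them among the 125), 26 with whole counts only, and 128 to 212 with 1 library left out, highest without white 1. It stayed within 1.5 times with no red or blue counts allowed (88), with a maximum of 0.2 CPM (168) and with TMM-scaled CPM (145). The mean share of white counts, 0.357%, was 0.224% without the most abundant cluster, 0.407% with TMM scaling and 0.227% to 0.422% with 1 white library left out. Of the 125, the number called lower was 120 to 125 in red and 116 to 125 in blue with 1 library left out. With a mean of at least 10 CPM over all libraries, it was 19 in each, as only 19 of the 125 were tested, and all other alternatives called at least 102. With replicate number as a block, 114 were called in red and 102 in blue. Deviations of same-numbered libraries correlated weakly, by 0.0053 to 0.066, yet 7 of 9 libraries correlated best with their own number. The main fit used no block, and whether same-numbered libraries share more than a number was not tested. A count of 0 in a single red or blue library allows a level of up to 0.122 to 0.170 CPM, so 1 library cannot show silence below that. A count of 0 over all 6 pooled allows a level of up to 0.0249 CPM, from counting error alone.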
